A study of Arabidopsis thaliana with 305 samples.

Results

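Transcripts of 5 calcium channel genes and 5 calcium-dependent protein kinase (CPK) genes of Arabidopsis thaliana immunity were followed through an infiltration experiment. The 10 genes were chosen by name: the cyclic nucleotide-gated channels CNGC2 (AT5G15410), CNGC4 (AT5G54250), CNGC19 (AT3G17690) and CNGC20 (AT3G17700), the osmosensing-type channel OSCA1.3 (AT1G11960), and the kinases CPK4 (AT4G09570), CPK5 (AT4G35310), CPK6 (AT2G17290), CPK11 (AT1G35670) and CPK28 (AT5G66210). They are 10 of the 25320 genes in the count table, and all 10 passed the filter on low counts that left 19687 genes for testing. Earlier results of these data were known when the 10 genes were chosen, so their counts beside all genes are a description.

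Calcium entry into the cytosol is among the earliest steps of plant immune signalling. Cell-surface receptors that bind bacterial patterns act through kinases such as BIK1 to open plasma membrane channels, and intracellular receptors of the NLR class open a slower and longer calcium influx when they detect a bacterial effector. CPK proteins join a kinase domain to a calcium-binding domain, so that the calcium rise itself switches them on, and their known targets include the oxidase RBOHD and WRKY transcription factors. All measurements here are of transcript levels, and neither channel activity nor calcium was measured.

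RNA was sequenced from leaf discs of 6-week-old plants kept in short days. The genotypes were the accession Col-0, nrg1.1 nrg1.2 (both NRG1 helper NLR genes mutated), adr1 triple (the 3 ADR1-family helper NLR genes mutated) and helperless (both families mutated). Leaves were taken at T0, without infiltration, or at 0.5, 4 and 8 h after hand infiltration with bacteria that carried an empty vector (EV) or delivered AvrRps4, AvrRpt2 or AvrRpm1, effectors recognised by separate NLR receptors. The series description names the infiltrated bacterium Pf0, while the protocol in the labels describes strains of Pst DC3000 for growth curves. Each of the 52 groups has n = 3, and no label says whether replicates are separate plants, so p-values measure the spread between these samples, which may be technical.

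Each replicate held between 4276389 and 28926563 counts (median 11021790). Genotype labels were checked in the 282 infiltrated libraries, and not at T0. The check was the ratio of AT4G33300 to AT5G04720 counts (the helper genes ADR1-L1 and ADR1-L2), with a limit of 10. Col-0 and nrg1.1 nrg1.2 were to lie below that limit, and adr1 triple and helperless above it. In 10 libraries, from 6 replicates, the ratio went against the genotype label. They are both libraries of replicate 3 in Col-0, adr1 triple and helperless under EV at 8 h, both of replicate 2 in adr1 triple under AvrRpm1 at 8 h, and 1 library each of replicate 3 in nrg1.1 nrg1.2 under EV at 8 h and under AvrRpm1 at 4 h. They were kept under their labels, and results that rest on them are given without them as well. Because the samples are bulk leaf tissue, fewer cells of a type and less RNA per cell cannot be told apart.

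The genes sit at several places in the genome, with CNGC19 (chr3:6045002-6048529, plus strand) and CNGC20 (chr3:6048814-6052675, plus strand) side by side in the same orientation and 284 bases apart (TAIR10.1). These neighbours are also close paralogs, with 83.2% identity of their coding sequences. CPK4 and CPK11 share 88.1% and CPK5 and CPK6 share 86.5%. At the read length of 50 bases, CNGC19 and CNGC20 share 5 of 2711 and 2732 exonic 50-base words, CPK4 and CPK11 share 8 of 1772 and 1781, and CPK5 and CPK6 share 0, so few reads could be assigned to the wrong paralog. CNGC2, CPK4 and CPK28 overlap a neighbouring gene by 28, 29 and 13 bases, and the strand setting of the counting is not given.

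The 200 bases before the annotated transcript start are shown for 4 genes, the adjacent channel pair because CNGC19 passed the main test under effectors and CNGC20 did not, and OSCA1.3 and CPK28 because they rose strongly within 0.5 h (RefSeq annotation of TAIR10.1). CNGC19 lies in chr3:6044802-6045001 on the plus strand, CNGC20 in chr3:6048614-6048813 on the plus strand, OSCA1.3 in chr1:4044047-4044246 on the minus strand and CPK28 in chr5:26459655-26459854 on the minus strand. Capitals mark TTGAC, the core of the WRKY-bound W-box, and CGCG, the core bound by CAMTA calmodulin-binding factors, searched on both strands.
CNGC19: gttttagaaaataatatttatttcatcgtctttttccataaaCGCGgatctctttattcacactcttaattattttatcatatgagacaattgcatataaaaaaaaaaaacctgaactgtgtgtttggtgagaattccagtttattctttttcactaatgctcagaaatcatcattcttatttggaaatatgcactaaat
CNGC20: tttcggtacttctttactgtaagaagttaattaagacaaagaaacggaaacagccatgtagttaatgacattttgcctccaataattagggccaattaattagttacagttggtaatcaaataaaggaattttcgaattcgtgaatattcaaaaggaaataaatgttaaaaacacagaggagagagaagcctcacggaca
OSCA1.3: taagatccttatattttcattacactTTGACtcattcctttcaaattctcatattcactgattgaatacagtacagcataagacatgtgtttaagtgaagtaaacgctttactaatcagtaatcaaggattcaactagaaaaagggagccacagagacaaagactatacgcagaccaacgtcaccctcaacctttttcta
CPK28: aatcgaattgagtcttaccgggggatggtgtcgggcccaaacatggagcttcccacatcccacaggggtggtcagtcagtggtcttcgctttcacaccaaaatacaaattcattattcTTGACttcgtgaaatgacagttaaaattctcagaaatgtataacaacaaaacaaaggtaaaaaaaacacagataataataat
TTGAC was found in 5 of the 10 windows (CNGC2, with 2 copies, OSCA1.3, CPK4, CPK5 and CPK28) and in 38.7% of 27443 annotated promoters of the same length. CGCG was found in 1 of the 10 windows, 158 bases before the start of CNGC19, and in 8.5% of all promoters. Of the 8 genes that rose within 0.5 h, described next, OSCA1.3, CPK4, CPK5 and CPK28 hold the TTGAC letters and the others do not, while CNGC2, which did not rise, holds 2 copies. These matches are a description of letters in a window, not of binding.

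Before infiltration, CNGC2 was the most abundant of the 10 transcripts in Col-0 on a per-length scale, at 100.26 ± 44.27 CPM per kb of exon, where CPM are counts scaled to a common library size (SD, n = 3). It was followed by CPK5 at 24.6 ± 3.26 CPM per kb, and CNGC19 was the lowest at 0.35 ± 0.24. CPK11, CNGC4 and CPK28, at means of 14.6, 12.4 and 11.5 CPM per kb, overlapped between replicates, and so did CPK6, CPK4, OSCA1.3 and CNGC20 at 7.02, 6.69, 5.95 and 4.90. At 0.5 h after EV infiltration the order had changed. CPK28 led at 524 ± 98.0 CPM per kb, above CPK5 at 112 ± 12.5, and CNGC2 stood at 50.7 ± 18.4, overlapping between replicates with CNGC20 (72.6), CPK11 (58.8) and CPK4 (52.8) and below OSCA1.3 (87.7) in all replicates. CPK6 followed at 32.7 ± 5.99, and CNGC19 and CNGC4 were lowest at 9.62 ± 2.01 and 7.57 ± 3.78.

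The comparison of EV with T0 asks what infiltration with a strain that delivers none of these effectors does, and in it the time of day, wounding of the leaf and the bacterium cannot be told apart. Within 0.5 h, 8 of the 10 transcripts rose in Col-0, by 2.01 to 5.51 on the log2 scale. CPK28, a kinase known to limit immune signalling by promoting turnover of BIK1, stood at 39.8, 14.1 and 33.7 CPM in the T0 replicates and at 1157, 1612 and 1213 CPM at 0.5 h. CNGC19, a channel known from wound and herbivore responses, went from 1.81, 0.492 and 0.716 to 32.1, 30.1 and 21.2 CPM. For both genes all infiltrated replicates lay far above all T0 replicates. The log2 fold changes were 5.51 ± 0.44 (SE) for CPK28 (adjusted p = 5.61e-20, edgeR quasi-likelihood test with Benjamini-Hochberg adjustment over 19687 genes) and 4.79 ± 0.79 for CNGC19 (adjusted p = 3.44e-07). A gene is said to have risen or fallen here when its adjusted p is under 0.05 and its log2 fold change is at least 1 in size, and log2 values are given ± SE throughout.

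CNGC20, which acts with CNGC19 in cell death control, went from 17.0, 11.4 and 14.2 to 162, 292 and 178 CPM, a log2 fold change of 3.89 ± 0.49 (adjusted p = 7.37e-11). OSCA1.3, a BIK1 target in stomatal closure, went from 27.5, 14.8 and 18.6 to 354, 271 and 272 CPM (3.88 ± 0.59, adjusted p = 3.91e-08). The 3 infiltrated replicates of each channel again lay above the T0 replicates without overlap. Among the other kinases, CPK4 rose by 2.98 ± 0.36, CPK6 by 2.22 ± 0.28, CPK5 by 2.19 ± 0.30 and CPK11 by 2.01 ± 0.35 on the log2 scale, with adjusted p between 9.72e-12 and 1.28e-06. CPK5 and CPK6 are the kinases best known for activating RBOHD and defence genes, and CPK4 and CPK11 act partly redundantly with them and also in abscisic acid signalling.

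CNGC2 and CNGC4, which form a channel needed for calcium entry after flagellin perception and whose loss gives the defence-no-death mutants, were not among those that rose. Their log2 fold changes at 0.5 h were -0.98 ± 0.71 (adjusted p = 0.325) and -0.72 ± 0.62 (adjusted p = 0.428). Over all genes tested, 14% rose and 8.6% fell in this comparison, and the median log2 fold change was 2.60 over the 10 genes and -0.04 over all genes. All 8 rises remained without each replicate in turn. In helperless, adr1 triple and nrg1.1 nrg1.2 the count was also 8 of 10 at 0.5 h, with CPK28 changed by 5.43 ± 0.43, 4.61 ± 0.42 and 5.48 ± 0.44 in that order. The share of all genes that rose there was 12.4%, 12.3% and 13.8%, and the share that fell, with 0 of the members, was 5.57%, 5.3% and 6.71%.

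**Figure D1:**
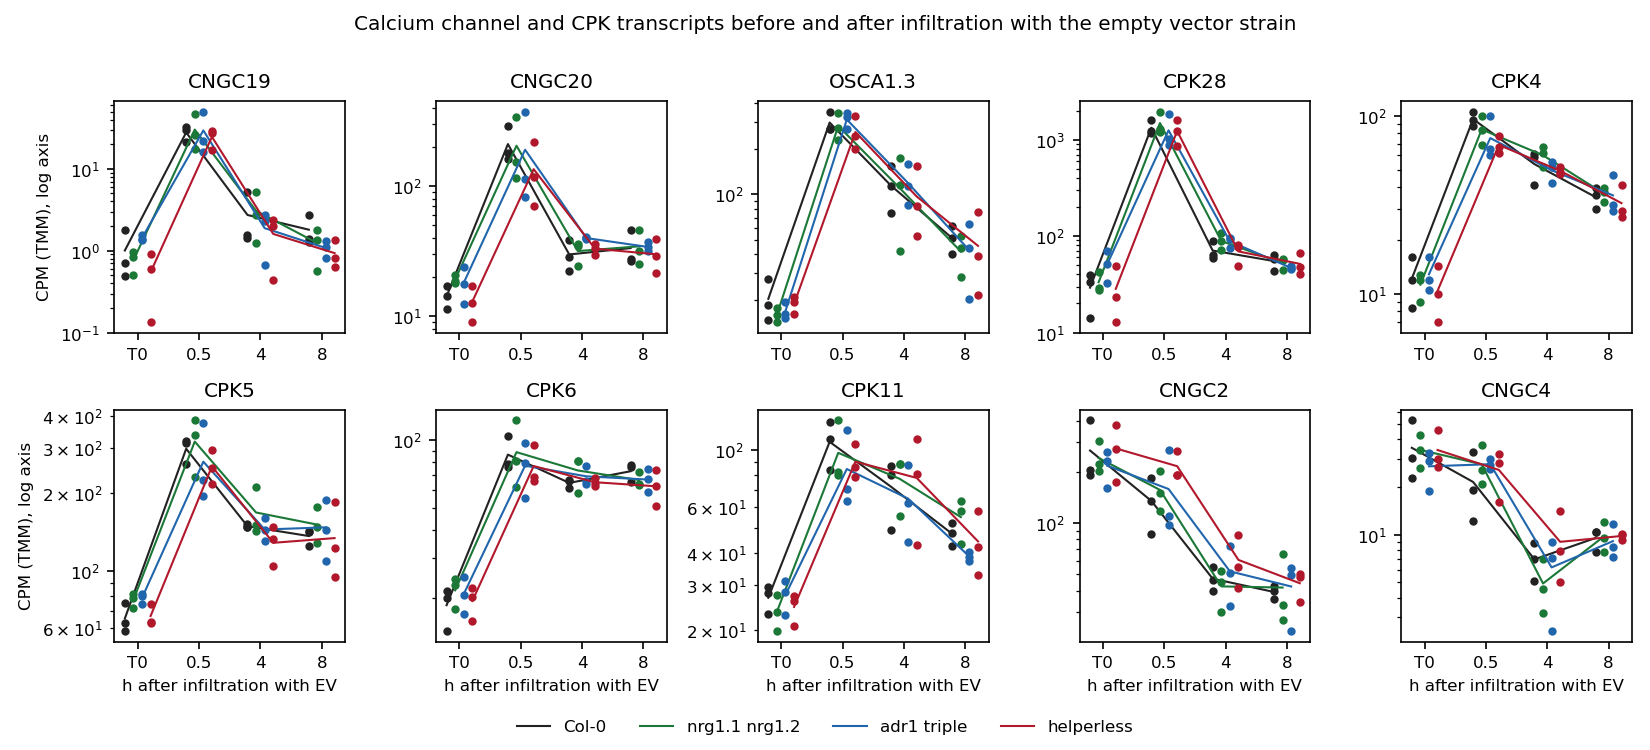
TMM-normalised CPM (log axis) of each gene at T0 and at 0.5, 4 and 8 h after infiltration with the EV strain, evenly spaced, with 3 replicates as points and their means joined by lines for each of the 4 genotypes. The means of the 8 genes from CNGC19 to CPK11 peak at 0.5 h in all genotypes, while CNGC2 and CNGC4 are lower at 4 and 8 h than at T0.

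By 4 h the strongest early rises had largely subsided. Between 0.5 and 4 h of EV in Col-0, 5 of the 10 transcripts fell, beside 24.6% of all genes. The log2 change was -4.23 ± 0.41 for CPK28 (adjusted p = 2.95e-15), -3.34 ± 0.73 for CNGC19 (adjusted p = 5.14e-05), -2.82 ± 0.47 for CNGC20 (adjusted p = 2.69e-07), -1.63 ± 0.65 for CNGC4 (adjusted p = 0.0256) and -1.39 ± 0.54 for OSCA1.3 (adjusted p = 0.0224). None rose, beside 17% of all genes. CPK28 stood at 59.9, 63.4 and 88.8 CPM and CNGC19 at 5.20, 1.45 and 1.56 CPM at 4 h. CPK6, in contrast, stood at 105, 78.5 and 76.2 CPM at 0.5 h, at 66.3, 61.4 and 66.7 CPM at 4 h and at 77.5, 65.4 and 76.0 CPM at 8 h, above its T0 values of 21.6, 14.3 and 19.9 in all replicates. The falls of CNGC4 and OSCA1.3 did not pass without replicate 2 of all groups (adjusted p = 0.173 and 0.124), and also not without replicate 1 for CNGC4 (-0.90, adjusted p = 0.302) and without replicate 3 for OSCA1.3 (adjusted p = 0.086). Between 4 and 8 h no member passed in edgeR, with 1 of 10 at an unadjusted p under 0.05, and 3.13% of all genes rose and 3.54% fell.

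Compared with T0, 7 transcripts were higher and 2 lower at 4 h of EV in Col-0, when 23.1% of all genes had risen and 25.7% had fallen. The risen ones were OSCA1.3 (2.49 ± 0.56), CPK4 (2.14 ± 0.35), CPK6 (1.80 ± 0.28), CPK11 (1.43 ± 0.34), CPK28 (1.28 ± 0.37), CPK5 (1.19 ± 0.29) and CNGC20 (1.07 ± 0.45), with adjusted p from 4.12e-08 to 0.0312. At 8 h, CPK6 (1.97 ± 0.28), CPK4 (1.52 ± 0.34), OSCA1.3 (1.33 ± 0.54), CNGC20 (1.24 ± 0.45) and CPK5 (1.06 ± 0.29) were higher and the same 2 genes lower, beside 19.1% of all genes up and 22.5% down. CNGC19 had log2 fold changes of 1.45 ± 0.78 at 4 h (adjusted p = 0.0952) and 0.84 ± 0.79 at 8 h (adjusted p = 0.373). Of these rises, CNGC20 at 4 h did not pass without any single replicate (adjusted p = 0.106, 0.0867 and 0.0905), and CPK28 at 4 h not without replicate 2 (adjusted p = 0.091). At 8 h, CNGC20 did not pass without replicate 1 or 2 (adjusted p = 0.0872 and 0.056), CPK5 without replicate 2 (adjusted p = 0.0507), and OSCA1.3 without replicate 2 or 3 (adjusted p = 0.0719 and 0.194) or without the 10 libraries (1.22, adjusted p = 0.0705).

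The genes that were lower are CNGC2 and CNGC4. CNGC2 stood at 205, 403 and 193 CPM at T0, at 55.3, 39.7 and 46.1 CPM at 4 h and at 42.5, 39.8 and 35.5 CPM at 8 h, so that all later replicates lay below all T0 replicates. CNGC4 stood at 30.5, 22.8 and 53.0 CPM at T0, at 5.12, 6.98 and 8.84 CPM at 4 h and at 10.4, 10.4 and 7.82 CPM at 8 h, again without overlap. The log2 fold changes at 4 h were -2.50 ± 0.75 (adjusted p = 0.00242) and -2.35 ± 0.66 (adjusted p = 0.00123), and at 8 h -2.76 ± 0.75 (adjusted p = 0.00116) and -1.89 ± 0.64 (adjusted p = 0.00879). CNGC2 did not pass without replicate 2 (adjusted p = 0.106 at 4 h and 0.0667 at 8 h), nor did CNGC4 at 8 h without replicate 2 or 3 (adjusted p = 0.0508 and 0.0629). Mesophyll marker transcripts fell over the same hours: the summed level of 4 of 4 listed markers was 68309.4 to 74587.8 CPM at T0, 9249.7 to 14643.5 CPM at 4 h and 2375.0 to 10947.0 CPM at 8 h in the Col-0 EV groups. The summed vascular markers (5 of 5 measured) were 437.5 to 557.4 CPM at T0 and 532.6 to 639.0 CPM at 8 h, the guard cell markers (6 of 6) 53.0 to 98.0 and 52.8 to 70.3 CPM, and the epidermis markers (4 of 4) 233.8 to 491.6 and 97.5 to 147.1 CPM, and no marker was at 0 in all samples. The part of cell composition in the fall of CNGC2 and CNGC4 was not tested. Both were lower at 4 and 8 h in each mutant as well, 12 calls in all, of which 1 was left without replicate 2 (CNGC4 at 4 h in nrg1.1 nrg1.2). In nrg1.1 nrg1.2, 7 transcripts were higher at 4 h and 4 at 8 h, beside 23.1% and 19.5% of all genes up and 25.8% and 23.1% down. In adr1 triple 5 and 3 were higher, beside 21.4% and 17.3% up and 24% and 21.2% down, and in helperless 6 and 5, beside 20.6% and 18% up and 22.3% and 21.6% down.

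Other genes of calcium signalling, from lists written by family and role, moved in both directions under EV. At 0.5 h in Col-0, 12 of 21 tested other CPK genes rose and 0 fell, led by CPK32 (4.84), CPK1 (3.54) and CPK9 (3.43), with a list median of 1.68. Of 13 other CNGC genes 6 rose, led by CNGC8 (5.05), CNGC14 (4.91) and CNGC13 (4.89), and 0 fell, with a median of 0.78, and of 14 other OSCA-family genes 1 rose (AT1G62320, 4.63) and 0 fell, with a median of -0.38. Of 13 calcium pumps and exchangers, which return calcium to stores or out of the cell, 6 rose and 0 fell, led by the pump genes ACA1 (5.23), ACA2 (4.54) and ACA13 (3.68), with a median of 1.23. Of 15 partners and substrates of the channels and kinases 10 rose and 0 fell, led by the ubiquitin ligase gene ATL31 (6.41), the chitin receptor gene LYK5 (5.46) and WRKY33 (5.13), with a median of 3.38. All medians are log2 fold changes, beside -0.04 over all genes. Among the 19687 genes tested, 2748 rose and 1693 fell in this comparison.

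At 4 h the same lists held falls as well, when 4544 of the 19687 genes tested had risen and 5068 had fallen. Among other CPK genes 11 rose and 1 fell, with CPK27 (3.30), CPK10 (3.17) and CPK22 (2.99) the largest, and among other CNGC genes 4 rose and 2 fell, with CNGC13 at 3.38, CNGC12 at -2.67 and CNGC10 at 1.61. Among other OSCA-family genes 2 rose and 5 fell, with AT1G62320 at 5.71, AT4G15430 at -4.04 and OSCA1, the hyperosmolality-gated channel gene, at -2.57. Calcium pumps and exchangers split into 8 up and 2 down, with ACA9 (5.44), ACA12 (4.93) and ACA13 (3.95) the largest, and partners and substrates into 11 up and 2 down, with WRKY8 (6.77), WRKY28 (4.61) and ATL31 (4.20). The list medians were 1.44 for other CPK, 0.71 for other CNGC, -0.17 for other OSCA, 1.42 for calcium export and 3.34 for partners and substrates, beside 0.02 over all genes. OSCA1.3 therefore stood, at 2.49, with the 2 risen genes of its family and not with the 5 that fell.

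Effector strains were compared with EV at the same time to ask what recognition of each effector adds. At 0.5 h in Col-0, none of the 30 member comparisons over the 3 effectors passed in edgeR, and 1 had an unadjusted p under 0.05. The share of all genes that passed was 0.0102% for AvrRps4 and 0% for the others. At 4 h, AvrRpt2 raised CNGC19 and CPK4, 2 of 10 beside 2.31% of all genes, and AvrRpm1 raised CNGC19, CPK4 and CPK28, 3 of 10 beside 8.06%. No member fell at 4 h, beside 0.0254% and 1.8% of all genes. At 8 h, AvrRps4 raised CNGC19, CPK4 and CPK5 (beside 3.5% of all genes), AvrRpt2 raised CNGC19, CPK5, CPK28 and CPK4 and lowered OSCA1.3 (beside 9.67% up and 4.26% down), and AvrRpm1 raised CPK11 alone of the 10 (beside 16.6% up and 11.6% down). The effector comparisons at a given time share their EV samples.

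CNGC19 had the widest range of the 10 genes over the 52 groups, with a ratio of 97.7 between its highest and lowest group means. The highest was adr1 triple under AvrRpt2 at 8 h (mean 53.5 CPM, SD 57.6) and the lowest helperless at T0 (mean 0.548 CPM, SD 0.392). The ratio thus rests on a widely spread group and on a very low mean. At 4 h in Col-0 it stood at 5.20, 1.45 and 1.56 CPM under EV, at 29.9, 20.1 and 18.5 CPM under AvrRpt2 and at 30.1, 8.18 and 8.34 CPM under AvrRpm1. Both effector groups lay above EV in all replicates, with log2 fold changes of 3.06 ± 0.72 (adjusted p = 0.00411) and 2.50 ± 0.71 (adjusted p = 0.00938). Under AvrRps4 it stood at 11.1, 13.2 and 13.6 CPM, also without overlap with EV, but its log2 fold change of 2.20 ± 0.70 had an adjusted p of 0.178, in a comparison where 0.528% of all genes rose and 0% fell. Without replicate 2 the AvrRpt2 and AvrRpm1 differences did not pass (2.73, adjusted p = 0.397, and 2.36, adjusted p = 0.124), nor without replicate 3 (adjusted p = 0.0616 and 0.0588).

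At 8 h the effectors separated. CNGC19 stood at 1.39, 1.27 and 2.77 CPM under EV, at 52.2, 16.0 and 38.0 CPM under AvrRps4, at 32.3, 18.3 and 28.0 CPM under AvrRpt2 and at 5.09, 3.61 and 1.68 CPM under AvrRpm1. The AvrRps4 and AvrRpt2 replicates were all above those of EV, and the AvrRpm1 replicates overlapped with them. The log2 fold changes against EV were 4.29 ± 0.76 for AvrRps4 (adjusted p = 2.31e-05) and 3.86 ± 0.75 for AvrRpt2 (adjusted p = 5.81e-05), and both remained under all 11 alternatives. Compared directly at 8 h, without EV samples, CNGC19 was lower under AvrRpm1 than under AvrRpt2 (log2 difference -2.93 ± 0.71, adjusted p = 0.00203, beside 4.7% of all genes down and 6.92% up) and than under AvrRps4 (-3.36 ± 0.72, adjusted p = 0.00024, beside 7.1% down and 10.9% up). These differences also remained under all 11 alternatives.

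**Figure D2:**
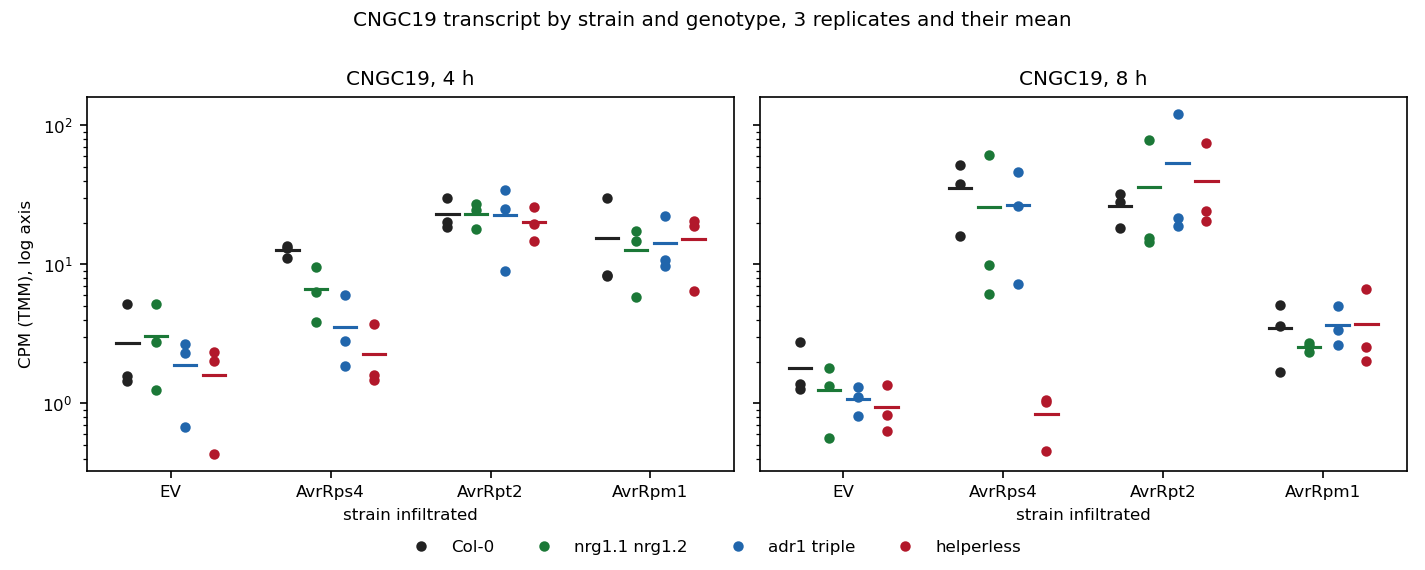
TMM-normalised CPM of CNGC19 (log axis) at 4 h and 8 h for the EV strain and each effector strain, with 3 replicates as points and their mean as a bar for each of the 4 genotypes. At 8 h the AvrRps4 replicates of helperless lie between 0.453 and 1.05 CPM, while those of Col-0 lie between 16.0 and 52.2 CPM and the AvrRpt2 replicates of helperless between 20.5 and 74.9 CPM.

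The adjacent gene CNGC20 passed under no effector in edgeR. At 8 h in Col-0 it stood at 46.0, 27.7 and 26.4 CPM under EV and at 97.9, 59.0 and 61.5 CPM under AvrRpt2, without overlap, but its log2 fold change of 1.12 had an adjusted p of 0.0518. In DESeq2 it passed there (1.14, adjusted p = 0.041), as it did under AvrRpt2 at 8 h in nrg1.1 nrg1.2 (1.08, adjusted p = 0.0377) and helperless (1.06, adjusted p = 0.0497), and the replicate block also passed it in Col-0 (adjusted p = 0.0469). CNGC19 passed in 4 of 9 effector comparisons in Col-0 in edgeR. The difference between the genes was not tested. OSCA1.3, which stood at 51.3, 40.2 and 61.8 CPM under EV at 8 h, was at 28.5, 8.58 and 9.12 CPM under AvrRpt2, below EV in all replicates (-1.72 ± 0.55, adjusted p = 0.0145). That fall did not pass without replicate 2 or 3 (adjusted p = 0.0769 and 0.227). CNGC2 and CNGC4 passed in none of the Col-0 effector comparisons, and their replicates were widely spread there: under AvrRps4 at 4 h, CNGC2 stood at 210, 95.3 and 28.3 CPM and CNGC4 at 34.7, 14.9 and 5.09 CPM.

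Among the kinases at 8 h in Col-0, CPK4 and CPK5 rose under AvrRps4 and AvrRpt2, CPK28 under AvrRpt2 and CPK11 under AvrRpm1. At 8 h in Col-0, CPK4 stood at 39.2, 29.9 and 35.9 CPM under EV, at 82.7, 78.2 and 99.98 CPM under AvrRps4 and at 78.3, 62.4 and 73.4 CPM under AvrRpt2. CPK5 stood at 142, 143 and 125 CPM under EV, at 217, 324 and 350 CPM under AvrRps4 and at 305, 339 and 377 CPM under AvrRpt2. For both kinases no effector replicate overlapped with EV. The log2 fold changes of CPK4 were 1.31 ± 0.34 (adjusted p = 0.0055) and 1.03 ± 0.33 (adjusted p = 0.0166), and those of CPK5 were 1.12 ± 0.29 (adjusted p = 0.0063) and 1.32 ± 0.29 (adjusted p = 0.000421). CPK28 rose under AvrRpt2 at 8 h by 1.08 ± 0.36 (adjusted p = 0.021).

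The rise of CPK5 under AvrRpt2 remained under all 11 alternatives, and the other kinase rises at 8 h did not. Without the 10 libraries, CPK5 under AvrRps4 was at 1.04 (adjusted p = 0.0584), and under AvrRpt2 CPK4 was at 1.00 (adjusted p = 0.0621) and CPK28 at 1.07 (adjusted p = 0.072). Without replicate 2 or 3, the adjusted p was 0.194 and 0.0788 for CPK4 and 0.218 and 0.102 for CPK5 under AvrRps4, and 0.165 and 0.0574 for CPK4 and 0.189 and 0.0847 for CPK28 under AvrRpt2. At 4 h, CPK4 rose by 1.298 ± 0.34 under AvrRpt2 (adjusted p = 0.011; 0.74 without replicate 2) and by 1.098 ± 0.33 under AvrRpm1 (adjusted p = 0.0156; 0.14 and 0.24 without replicate 1 and 2), and CPK28 by 1.07 ± 0.36 under AvrRpm1 (adjusted p = 0.0315; 0.345 and 0.319 without replicate 1 and 2; 0.0557 without the 10 libraries).

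CPK11, the close paralog of CPK4, stood at 47.6, 42.3 and 52.01 CPM under EV at 8 h in Col-0 and at 173, 97.9 and 99.3 CPM under AvrRpm1, again without overlap. Its log2 fold change of 1.38 ± 0.34 (adjusted p = 0.000716) remained under all 11 alternatives. Under AvrRpm1 CPK4 stood at 41.2, 48.7 and 26.6 CPM, with 2 replicates above the EV range and 1 below it. Directly between effectors at 8 h, AvrRpm1 gave lower CPK4 (-1.16 ± 0.34, adjusted p = 0.00585) and higher CPK11 (1.16 ± 0.34, adjusted p = 0.00707) than AvrRps4. CPK4 did not pass without replicate 3 (-0.84, adjusted p = 0.0967), nor CPK11 without replicate 1 or 3 (0.66, adjusted p = 0.117, and 1.36, adjusted p = 0.0518). Between AvrRpm1 and AvrRpt2 at 8 h neither kinase passed in edgeR with all replicates. CNGC19 alone of the 10 did, with 7 of 10 at an unadjusted p under 0.05. Of 19687 genes, 1362 were higher and 926 lower under AvrRpm1 there. AvrRpt2 and AvrRps4 at 8 h did not differ by the test for any member, with 0 of 10 at an unadjusted p under 0.05 and 0.193% of all genes higher and 0.0203% lower under AvrRpt2. No member passed between AvrRpm1 and AvrRpt2 at 4 h either, with 0 of 10 at an unadjusted p under 0.05. Of 19687 genes, 300 were higher and 25 lower under AvrRpm1 at 4 h.

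**Figure D3:**
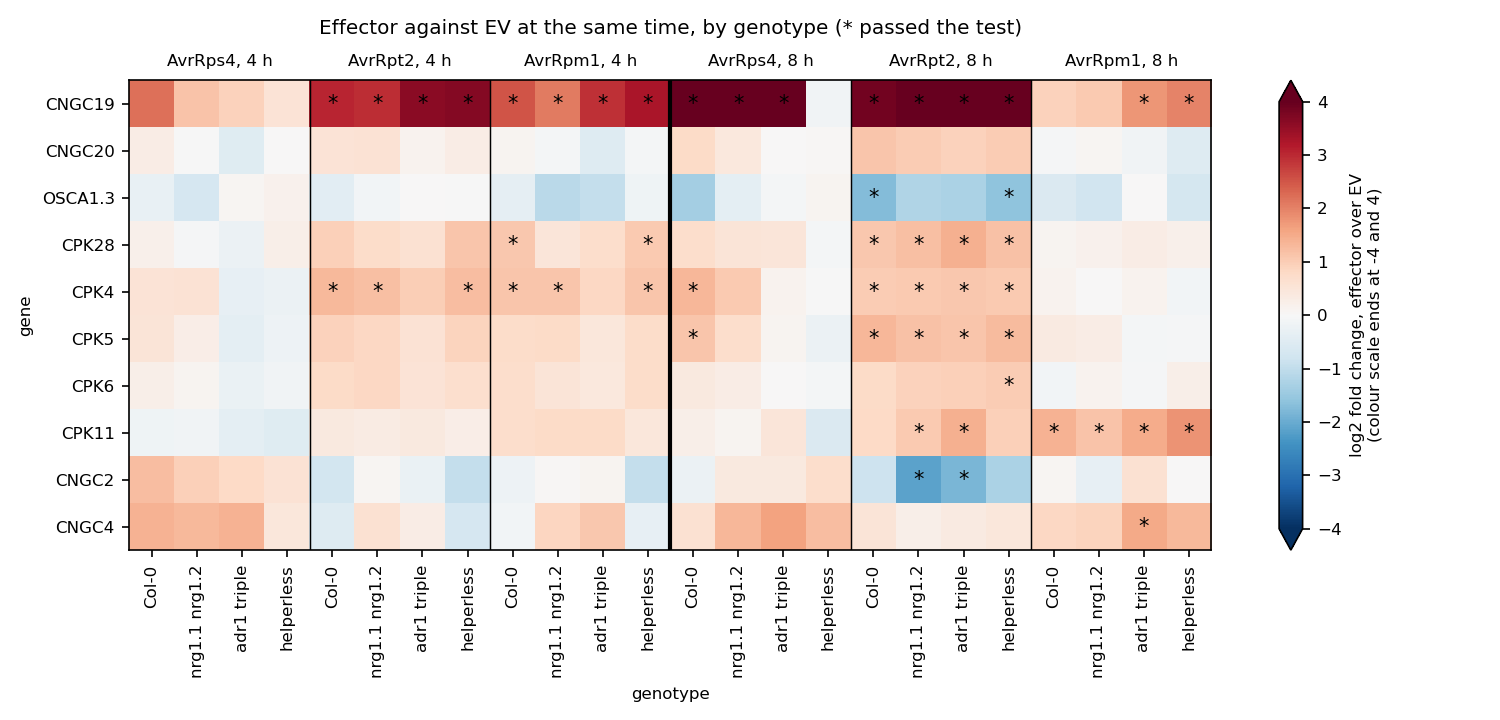
Log2 fold change of each gene for each effector strain against EV at 4 and 8 h in the 4 genotypes, as colour from -4 to 4 with larger values at the end colours, and an asterisk where the adjusted p was under 0.05 and the change at least 1 in size. The CNGC19 cell of helperless under AvrRps4 at 8 h (-0.14) is the pale one beside the dark cells of the other genotypes, and CPK11 is marked in all 4 genotypes under AvrRpm1 at 8 h.

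Of the wider calcium lists, few genes passed under effectors at 4 h in Col-0. Under AvrRps4 the exchanger gene CAX3 (3.81) was the single gene to rise and 0 fell. Under AvrRpt2, 3 of 13 export genes rose (ACA1, 2.14, ACA2, 1.66, and ACA11, 1.28), as did 2 of 13 other CNGC genes (CNGC13, 1.63, and CNGC10, 1.43), 3 of 15 partners (WRKY33, 1.48, RBOHD, 1.46, and CAMTA3, 1.39) and 0 of the other CPK and OSCA genes. Under AvrRpm1, 4 export genes (led by ACA13, 2.42, ACA1, 2.28, and ACA2, 1.68), 3 other CNGC genes (CNGC8, 3.85, CNGC13, 1.59, and CNGC10, 1.31), 3 other CPK genes (CPK32, 1.17, CPK30, 1.06, and CPK15, 1.04), 1 OSCA gene (AT3G21620, 3.19) and 3 partners (RBOHD, 1.67, WRKY33, 1.65, and CAMTA3, 1.62) rose, and 0 fell in either comparison. List medians lay between -0.21 and 0.67 under AvrRpt2, between -0.18 and 1.32 under AvrRpm1 and between 0.04 and 0.63 under AvrRps4, beside -0.03, 0.05 and 0.11 over all genes. Among the 19687 genes tested, 454 rose and 5 fell under AvrRpt2. Under AvrRpm1 1586 rose and 355 fell, and under AvrRps4 104 rose and 0 fell.

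The mutants ask whether these changes need the helper NLRs. At T0 and under EV, none of the 120 comparisons of a member between a mutant and Col-0 passed in edgeR or DESeq2, with 1 at an unadjusted p under 0.05. Over all genes, 0.493% to 2.53% had an unadjusted p under 0.05 in these comparisons. Samples of different genotypes with the same replicate number deviated together within a strain and time (median r = 0.466 over 234 sample pairs). The median for different numbers was -0.232. It is no separate comparison, because centring each group of 3 on its mean ties it to the same-number value. With that number as a block, again none of the 120 passed, with 3 at an unadjusted p under 0.05 and 1.63% to 8.21% of all genes.

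Under AvrRps4 some genotypes differed by the test. At 8 h of AvrRps4, CNGC19 stood at 9.94, 6.10 and 61.5 CPM in nrg1.1 nrg1.2, at 26.3, 7.26 and 46.4 CPM in adr1 triple and at 1.03, 1.05 and 0.453 CPM in helperless. Under EV helperless stood at 1.35, 0.824 and 0.637 CPM, so its AvrRps4 and EV replicates overlapped, while both other mutants lay above their EV replicates. The helperless AvrRps4 value rests on 38 counts over 3 replicates, against 1501 in Col-0.

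The log2 fold change of CNGC19 under AvrRps4 against EV at 8 h was 4.38 ± 0.77 in nrg1.1 nrg1.2 (adjusted p = 2.64e-05, beside 2.65% of all genes up), 4.63 ± 0.78 in adr1 triple (adjusted p = 6.23e-05, beside 1.55%) and -0.14 in helperless, where 0% of all genes passed and none of the 10 members had an unadjusted p under 0.05. The nrg1.1 nrg1.2 value fell to 2.34 (adjusted p = 0.25) without replicate 3, its highest sample, and the adr1 triple value remained under all 11 alternatives. Tested as an interaction, the AvrRps4 response of CNGC19 at 8 h was smaller in helperless than in Col-0 (log2 difference of responses -4.44 ± 1.12, adjusted p = 0.0145, beside 1.56% of all genes down and 0.188% up). It was the single call among 180 tests of a mutant against Col-0 in the response to an effector. With the replicate block within strain and time there were 5 calls, with CPK4 and CPK5 added in helperless (-1.32 for both, beside 4.93% of all genes down and 3.62% up) and in adr1 triple (-1.14 and -1.02, beside 0.864% down and 0.305% up). Same-numbered samples did not all deviate together there, with a lowest r of -0.031 for helperless and 0.018 for adr1 triple. This block was not run without the 10 libraries or without a replicate. In the fit with no block, leaving out the 10 libraries, of which 4 enter the helperless contrast through EV, gave a CNGC19 difference of -5.07 (adjusted p = 0.0526). Without replicate 1, 2 or 3 the CNGC19 difference was -3.71, -4.78 and -4.74 (adjusted p = 0.153, 0.124 and 0.189). In nrg1.1 nrg1.2 and adr1 triple the interaction of CNGC19 was 0.08 ± 0.96 and 0.34 ± 0.99.

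Because EV samples at 8 h include libraries that went against their label, genotypes were also compared directly under the same effector and time, a comparison chosen after seeing the data. At 8 h of AvrRps4, helperless was below Col-0 for CNGC19 (-5.37 ± 0.82, adjusted p = 4.01e-07), CPK4 (-1.44 ± 0.34, adjusted p = 0.00101) and CPK5 (-1.37 ± 0.29, adjusted p = 0.000301), 3 of 10 beside 6.91% of all genes down and 3.8% up. CPK4 stood there at 23.6, 38.0 and 34.6 CPM and CPK5 at 80.9, 104 and 161 CPM in helperless, all below the Col-0 replicates given above. CNGC19 and CPK4 remained under all 11 alternatives, with log2 values of -5.81 to -5.03 and -1.63 to -1.28, and CPK5 under all except without replicate 2 (-1.22, adjusted p = 0.0543). The summed mesophyll markers were 4687.5 to 18083.8 CPM in helperless and 1251.6 to 8604.9 CPM in Col-0 under AvrRps4 at 8 h, and the epidermis markers 110.4 to 218.1 and 36.7 to 144.0 CPM, and their part in these differences was not tested.

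Helperless was also below the single-family mutants. Against nrg1.1 nrg1.2 at 8 h of AvrRps4, the log2 difference was -4.92 ± 0.81 for CNGC19 (adjusted p = 3.82e-06), -1.25 ± 0.34 for CPK4 (adjusted p = 0.00754), -1.11 ± 0.29 for CPK5 (adjusted p = 0.00604) and -1.01 ± 0.34 for CPK11 (adjusted p = 0.0426), 4 of 10 beside 4.84% of all genes down and 0.93% up. Against adr1 triple, CNGC19 alone of the 10 was lower (-4.98 ± 0.81, adjusted p = 8.54e-05, beside 1.13% down and 0.0559% up). Without replicate 3 the CNGC19 differences were -2.94 (adjusted p = 0.129) and -4.03 (adjusted p = 0.123), and the largest adjusted p without a replicate was 0.34 for CPK4, 0.22 for CPK5 and 0.634 for CPK11 against nrg1.1 nrg1.2.

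For CPK4 at 8 h of AvrRps4, the replicates of adr1 triple and helperless overlapped. CPK4 in adr1 triple stood at 40.1, 32.3 and 46.8 CPM at 8 h, below all Col-0 replicates, and nrg1.1 nrg1.2 at 54.4, 61.1 and 113 CPM overlapped with Col-0. The log2 difference of adr1 triple from Col-0 was -1.13 for CPK4 (adjusted p = 0.0513) and -0.90 for CPK5 (adjusted p = 0.0802), neither past the threshold in the main fit, beside 0.696% of all genes down and 0.208% up. In this comparison 1 member was lower with DESeq2, without replicate 3, with only the genotypes compared, and with the replicate block. The difference between adr1 triple and nrg1.1 nrg1.2 in the AvrRps4 response at 8 h was -0.91 ± 0.47 for CPK4 and -0.61 ± 0.41 for CPK5 (adjusted p = 1.0 for both), and none of the 60 tests between these mutants passed, in edgeR or DESeq2, with 0 at an unadjusted p under 0.05 (0 passed and 4 were under it with the block within strain and time). Over all genes, 0.533% to 2.25% were under it without the block and 1.41% to 6.06% with it.

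**Figure D4:**
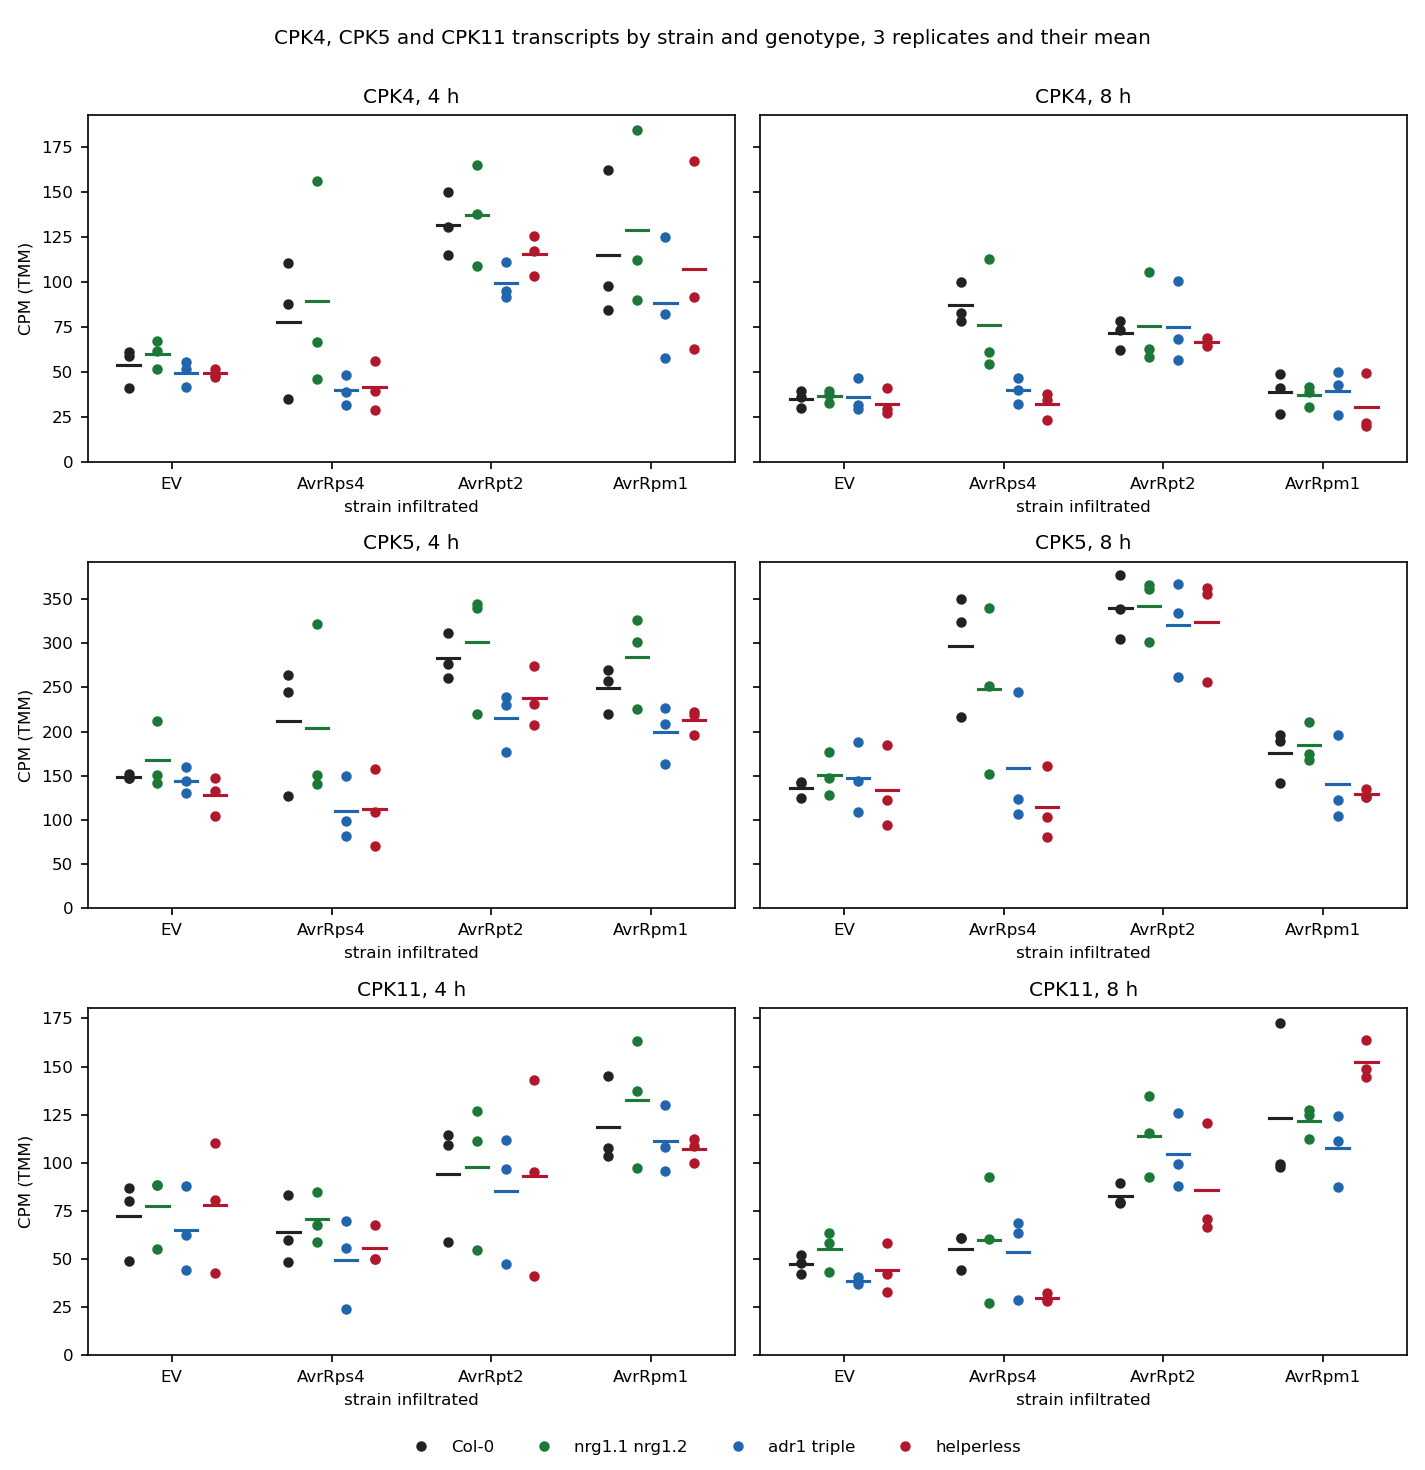
TMM-normalised CPM of CPK4, CPK5 and CPK11 at 4 and 8 h for the EV strain and each effector strain, with 3 replicates as points and their mean as a bar for each of the 4 genotypes, on axes that start at 0. At 8 h of AvrRps4, CPK4 lies at 23.6 to 38.0 CPM in helperless and 78.2 to 99.98 CPM in Col-0, and CPK11 has its highest mean under AvrRpm1 in all genotypes.

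Under AvrRpt2 and AvrRpm1 the members changed in helperless as well. CNGC19 in helperless stood at 19.5, 14.7 and 26.0 CPM at 4 h and 74.9, 24.2 and 20.5 CPM at 8 h of AvrRpt2, all above its EV values, with log2 fold changes of 3.68 ± 0.76 (adjusted p = 0.000617; 0.104 without replicate 2) and 5.40 ± 0.81 (adjusted p = 2.29e-07), the latter under all 11 alternatives. At 8 h of AvrRpt2 in helperless, CNGC19, CPK5, CPK28, CPK4 and CPK6 rose and OSCA1.3 fell (6 of 10, beside 10.4% of all genes up and 8.53% down), with CPK5 at 1.28 ± 0.29, CPK28 at 1.17 ± 0.37, CPK4 at 1.04 ± 0.33, CPK6 at 1.02 ± 0.27 and OSCA1.3 at -1.62 ± 0.55. Apart from CNGC19, none of these remained without replicate 2, with adjusted p from 0.0951 to 0.247, and CPK28 was at 1.11 (adjusted p = 0.0513) without the 10 libraries. Under AvrRpm1 at 4 h, CNGC19 (3.26 ± 0.75), CPK4 (1.12 ± 0.33) and CPK28 (1.03 ± 0.36) rose in helperless, beside 8.45% of all genes, and without replicate 2 had adjusted p of 0.129, 0.185 and 0.367.

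CPK11 passed under AvrRpm1 at 8 h in all 4 genotypes. It stood at 144, 164 and 149 CPM in helperless, against 41.9, 32.7 and 58.1 CPM under EV, a log2 fold change of 1.78 ± 0.35 (adjusted p = 1.36e-05, beside 18.7% of all genes up). It was 1.48 ± 0.34 in adr1 triple (adjusted p = 0.000254) and 1.14 ± 0.34 in nrg1.1 nrg1.2 (adjusted p = 0.00417; 0.98 and 0.131 without replicate 3), beside 19.4% and 16.7%. CNGC19 under AvrRpm1 at 8 h passed in adr1 triple (1.76 ± 0.76, adjusted p = 0.0486) and helperless (1.99 ± 0.77, adjusted p = 0.0263), but without the 10 libraries it did not (adjusted p = 0.133 and 0.103). CNGC4 in adr1 triple likewise passed at 1.52 ± 0.64 (adjusted p = 0.0403) and not without them (1.29, adjusted p = 0.197). CNGC2 was lower under AvrRpt2 at 8 h in nrg1.1 nrg1.2 (-2.13 ± 0.75, adjusted p = 0.0186) and adr1 triple (-1.84 ± 0.74, adjusted p = 0.0374), beside 13% and 14.6% of all genes, and not without replicate 1 (adjusted p = 0.236 and 0.336).

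Compared directly between genotypes under AvrRpt2 or AvrRpm1 at 4 and 8 h, none of 200 member comparisons passed in edgeR, none had an unadjusted p under 0.05, and the smallest adjusted p was 0.827. With the block, none passed either, and 17 were at an unadjusted p under 0.05. Over all genes, 1.39% to 6.87% were under it without the block and 3.74% to 14.9% with it. For CNGC19 in helperless against Col-0 this does not show that the genotypes respond alike, since its replicates under AvrRpt2 at 8 h ran from 20.5 to 74.9 CPM in helperless and from 18.3 to 32.3 CPM in Col-0. The 8 calls among the 300 direct comparisons without a block were all at 8 h of AvrRps4 with helperless the lower genotype. At 4 h of AvrRps4, CNGC19 in helperless stood at 1.47, 1.60 and 3.73 CPM, below the 11.1 to 13.6 CPM of Col-0, with a log2 difference of -2.47 (adjusted p = 0.0554).

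The replicate block within strain and time, which was chosen after seeing the data, changed several of the AvrRps4 comparisons, all in genotype pairs whose same-numbered samples each correlated above 0.1. The lowest correlation of a comparison ran from 0.11 (adr1 triple against Col-0 at 8 h) to 0.435 (helperless against Col-0 at 4 h). This block was not run without a replicate. It gave 14 calls in place of 8, of which 7 were shared. At 4 h of AvrRps4, CNGC19 was then lower than in Col-0 both in helperless (-2.61 ± 0.45, adjusted p = 1.79e-05, beside 2.48% of all genes down) and in adr1 triple (-1.96 ± 0.44, adjusted p = 0.0018, beside 2.15%), whose replicates stood at 2.83, 1.86 and 6.02 CPM. Against nrg1.1 nrg1.2, which stood at 3.87, 6.36 and 9.65 CPM, helperless was lower for CNGC19 (-1.59 ± 0.46, adjusted p = 0.0305) and CPK4 (-1.01 ± 0.22, adjusted p = 0.00143), beside 1.94% of all genes. At 8 h the block put CPK4 in adr1 triple below Col-0 (-1.13 ± 0.22, adjusted p = 0.000122, beside 2.62%), and CPK5 had an adjusted p of 2.08e-05 at a log2 difference of -0.96, short of the fold threshold. CNGC2 (1.39 ± 0.46, adjusted p = 0.0122) and OSCA1.3 (1.195 ± 0.42, adjusted p = 0.0181) were higher in helperless than in Col-0 at 8 h with the block, beside 10.3% of all genes. CPK11 was then short of the fold threshold in helperless against nrg1.1 nrg1.2 (-0.85, adjusted p = 0.0017).

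Over the 52 group means, the members fell into several patterns (Pearson's r of log2 CPM, a description over groups that share time points). CNGC20 and CPK28 were the most alike (r = 0.934), followed by CNGC19 and CPK5 (0.899), CPK4 and CPK5 (0.897) and CPK4 and CPK6 (0.892). The tandem neighbours CNGC19 and CNGC20 had r = 0.741, CNGC2 and CNGC4 had 0.640, and CNGC2 and CPK6 had -0.542. Among all genes tested, the nearest to CPK28 were PGSIP7 (0.988) and NDR1 (0.986), to CPK5 the channel gene CNGC10 (0.981) and PARG2 (0.960), to CNGC2 the aquaporin gene PIP2E (0.977) and the brassinosteroid synthesis gene CPD (0.976), and to CNGC20 the receptor kinase gene SOBIR1 (0.965) and WRKY18 (0.959). OSCA1.3 was nearest to AT2G23120 (0.975) and OCT6 (0.972), CPK4 to CKX4 and NUDT7 (both 0.967), CPK6 to VPS46.2 (0.970) and the metacaspase gene MC4 (0.965), CPK11 to AT5G54940 (0.961) and AT3G16530 (0.958), CNGC4 to AAPT2 (0.942) and AT2G20920 (0.928), and CNGC19 to DAR3 (0.942) and AT1G69840 (0.920).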

How the data were processed

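Libraries were made from leaf RNA by oligo(dT) selection and random hexamer priming and sequenced as 50-base single reads, per the labels' protocols. The authors deposited counts per gene, and FastQC 0.11.7, Trimmomatic 0.36, HISAT2 2.1.0, featureCounts from Subread and the TAIR10 build are named in the submitters' processing notes, while the strand setting is not given in the sources used here. The 305 libraries were grouped by their labels, and the 2 libraries that carry the same group and replicate number in 149 of 156 replicates were summed. The chi-square per degree of freedom between such libraries ran from 3.44 to 104.38 (median 16.57), so they differed by more than read sampling. What sets them apart is not given. No other sample columns were left unused.

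Counts were scaled with TMM factors (trimmed mean of M values, 0.655 to 1.50) and tested with edgeR 4.0.16 (R 4.3.3), by a robust quasi-likelihood F test in 1 model of 52 group means after filtering by expression within groups. The test code was run on counts simulated for Col-0 and helperless with the fitted dispersions. These counts were independent between samples, so they do not cover deviations shared between samples or libraries against their label. All p-values were adjusted by Benjamini-Hochberg within a contrast over 19687 genes. There were 92 contrasts, plus 30 between genotypes under the same effector that were added after seeing the data. The SE is the log2 fold change divided by the square root of F. Correlations were taken on log2 CPM (prior count 2), and 24966 identifiers matched the TAIR10.1 annotation. CPM of markers were scaled by library total alone. Alternatives were DESeq2 1.42.0, other scaling factors, no filter, unsummed libraries, a smaller fit, a replicate block, no fold threshold, and leaving out replicates or 10 libraries. The alternative with no fold threshold reuses the main fit, so it can add calls but not remove any.

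The members and lists were chosen with earlier results of these data known. All 10 members are named where described, as are up to 3 genes per list with the largest changes among those that passed at the named times, and the 2 genes nearest to each member in pattern. Pooled over all groups, same-numbered samples deviated together little, and pairing of strains within a genotype and time was not tested. Within a strain and time every same-numbered pair correlated above 0.1 in 45 of 66 genotype comparisons. A block of replicate within strain and time was therefore added after seeing the data. Both this block and the replicate block among the alternatives kept the dispersion trend of the main fit, which has no block. Only the quasi-likelihood dispersion and the tests were fitted with the block. Proteins of these genes were not analysed here.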

Additional observations from a re-analysis of the deposited data

Results flagged for a closer look

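The response of CNGC19 to AvrRps4 at 8 h differed between genotypes by the test of the difference itself, which is what put it here. The interaction of helperless against Col-0 was -4.44 ± 1.12 on the log2 scale (edgeR, adjusted p = 0.0145), with all 3 Col-0 replicates above EV and the helperless replicates overlapping with EV. Over the 11 alternatives it ran from -5.07 to -3.71, with adjusted p from 0.00028 to 0.189, and it passed in 7 of them. The 7 include the main fit with no fold threshold, which could not fail. The value of helperless rests on 38 counts in all.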

How the results depend on the processing

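Of the 159 calls of a member in a contrast, 79 remained under all 11 alternatives, and no call changed sign under any of them. DESeq2, RLE factors and unsummed libraries kept all 159 and added 9, 3 and 33 calls. Leaving out replicate 1, 2 or 3 of all groups kept 133, 94 and 120, leaving out the 10 libraries kept 142, no filter kept 153, the fit of only the genotypes compared kept 145, and dropping the fold threshold, which cannot remove a call, added 19. The cause of the loss without replicate 2 was not tested beyond fewer samples. Without a replicate, counts of calls ran from 16 to 23 for EV against T0 in Col-0 (24 with all), from 48 to 62 in mutants (66), from 3 to 6 between EV times (5), from 4 to 12 for effectors against EV in Col-0 (14), from 18 to 29 in mutants (37), from 4 to 7 between effectors (4), from 0 to 0 for mutant by effector interactions (1), and from 4 to 10 for genotypes under the same effector (8). Between effectors there were 10 calls with libraries not summed and 8 at any fold change. Mutant by effector interactions gave 2 calls with DESeq2, 4 with libraries not summed, 0 without the 10 libraries, 2 with only the genotypes compared and 2 with the replicate block. Pooled over all groups, samples that share a replicate number deviated together little (median r = 0.071, minimum -0.694, 43% over 0.1). The median for other numbers, -0.037, is tied to that value by the centring of each group on its mean. Strains within a genotype and time were not looked at separately. The replicate block kept 157 of the 159 calls and added 8, among them the CPK5 interaction of helperless under AvrRps4 at 8 h (-1.32, adjusted p = 0.0406). The block within strain and time gave 5 interaction calls, CNGC19, CPK4 and CPK5 in helperless (adjusted p = 1.03e-05, 0.0018 and 3.83e-05) and CPK4 and CPK5 in adr1 triple (-1.14 and -1.02, adjusted p = 0.0241 and 0.00655), all lower under AvrRps4 at 8 h (beside 4.93% of all genes down in helperless and 0.864% in adr1 triple), where same-numbered EV samples were not all correlated. It gave 14 calls between genotypes under the same effector, and 0 at T0 and under EV or between mutants. Depth limits CNGC19 most, whose lowest group held few counts, and n = 3 with summed libraries of unknown origin limits all tests.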

Other observations

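At 8 h of AvrRpt2 in Col-0, genes of 4 of the 5 other calcium lists rose. Of 21 other CPK genes 7 rose and 0 fell, among them CPK29 (2.34), and of 13 calcium export genes 4 rose and 1 fell, with the pump gene ACA13 at 3.09, the vacuolar exchanger gene CAX3 at 2.35 and the pump gene ACA4 at -1.57. Of 13 other CNGC genes 3 rose, CNGC8 (3.76), CNGC10 (1.95) and CNGC13 (1.48), and of 15 partners and substrates 5 rose, among them WRKY33 (2.30) and RBOHD (1.62), and 0 fell. Of 14 other OSCA-family genes 0 rose and 1 fell (AT4G15430, -1.89). The list medians were 0.62, 0.52, -0.05, 0.96 and -0.19 in that order, beside 0.02 over all genes. Among the 19687 genes tested, 1903 rose and 838 fell.

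At 8 h of AvrRps4, ACA13 (3.78), CPK29 (2.34) and CNGC10 (1.66) rose, the single call in each of these lists. Among the 19687 genes tested, 689 rose and 210 fell there. CNGC10 is also the gene whose pattern over the 52 groups was nearest to that of CPK5. These 8 h genes were chosen after their values were seen.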
